A study of Mus musculus with 36 samples.

Results

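Jam2, Ntn1, Adgrg6, Edn1, Aqp3, Elovl7 and Tlx2 are 7 genes at sites to which Polycomb repressive complex 2 (PRC2) is recruited when mouse embryonic stem cells (ESCs) become epiblast-like cells (EpiLCs). They are 7 of the 55401 genes counted. They were chosen by these same RNA counts, for a deep fall in wild-type (WT) EpiLCs or for a rise in Polycomb-mutant cells, so their levels in EpiLCs, and the ratios built on them, are descriptions of that choice and are given with no test. Each of the 7 has a transcription start site (TSS) within 2000 bp of a recruited site of the study's site list, as 511 genes in all have. The name "strongly silenced" fitted 5 of the 7 in both WT lines. In the PclWT line Elovl7 fell little and Adgrg6 was hardly detected at either stage.

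PRC2 places methyl groups on lysine 27 of histone H3 at CpG-rich promoters, a mark of genes that are kept off during development. It exists in a form with a Polycomb-like protein (PHF1, MTF2 or PHF19), called PRC2.1, and a form with JARID2, called PRC2.2. Canonical Polycomb repressive complex 1 (PRC1), whose subunits include PCGF2 or PCGF4, binds the mark through its chromobox proteins. ESCs stand for the naive state of the early epiblast and EpiLCs for the later, formative state, in which PRC2 leaves some promoters and reaches others.

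RNA was sequenced in 36 libraries, 3 in each of 12 groups, all labelled as strain C57BL/6. J2KO cells lack JARID2 and are set against J2WT cells, TKO cells lack PHF1, MTF2 and PHF19 and are set against PclWT cells, and QKO cells lack those proteins and JARID2 and are set against the same PclWT cells. These 5 lines were measured as ESCs, grown with serum, LIF and 2 kinase inhibitors (2i), and as EpiLCs, made in 2 days on fibronectin with 20 ng/ml activin A plus 12 ng/ml bFGF. Pcgf2/4 KO cells, without PCGF2 and PCGF4, and their WT were measured as EpiLCs only. The labels trace J2KO and J2WT to a different source of cells than QKO, TKO and PclWT, and name 1 line of each mutant genotype, so the effect of a mutation and of its line cannot be told apart. The sources do not say that replicates were grown as separate cultures, and the p-values behind the calls below then measure only the spread between these libraries.

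The libraries held between 6784578 and 18026492 reads counted in genes, with a median of 10472704. Of the genes lost in TKO and QKO cells, Mtf2 averaged 36.7 to 44.3 CPM (counts in proportion to the library's total, scaled for composition), against 223 to 419 CPM in PclWT cells, and Phf1 averaged 0.123 to 0.595 CPM, against 7.80 to 8.06 CPM in PclWT cells. Phf19 averaged 0.48 to 2.43 CPM in TKO and QKO cells, against 1.67 to 3.04 CPM in PclWT cells. Jarid2, Pcgf2 and Bmi1 (which encodes PCGF4) kept transcripts in the cells that lack their proteins, so gene counts do not check those genotypes. EpiLCs of the PclWT family showed a weak EpiLC programme: the summed level of Fgf5, Dnmt3b, Otx2 and Pou3f1 was 310 to 360 CPM in QKO, 674 to 715 CPM in TKO and 517 to 585 CPM in PclWT EpiLCs, while it was 2830 to 2910 CPM in J2KO, 2900 to 2990 CPM in J2WT, 1530 to 1600 CPM in Pcgf2/4 KO and 2840 to 2860 CPM in WT EpiLCs. Each of the 4 averaged lower in the PclWT family than in every other EpiLC group. Dnmt3b made up most of each sum, and Otx2 did not follow it within the families. Otx2 averaged 59.1 CPM in QKO and 13.2 CPM in TKO against 3.39 CPM in PclWT, and 190 CPM in Pcgf2/4 KO against 159 CPM in WT. Fgf5 too averaged higher in QKO and TKO than in PclWT. PclWT EpiLC replicate 1 stood apart, with 1468 and 1655 genes over 2-fold away from the other replicates of its group, where no other pair of replicates differed at more than 48 genes. QKO EpiLC replicate 2 held 4.15% of its counts in rRNA genes, while the 35 other libraries held 0.0903% to 1.93%. Without PclWT EpiLC replicate 1, or without QKO EpiLC replicate 2, each log2 ratio of Jam2, Ntn1, Aqp3 and Elovl7 given below kept its direction, and the values follow the EpiLC comparisons.

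In build GRCm38 the genes lie on 6 chromosomes. Jam2 (ENSMUSG00000053062), a tight-junction protein of the immunoglobulin family, lies at chr16:84774123-84825928 on the plus strand. Ntn1 (ENSMUSG00000020902), a secreted axon guidance protein, lies at chr11:68209364-68400823 on the minus strand. Adgrg6 (ENSMUSG00000039116), an adhesion G protein-coupled receptor known for its role in myelination by Schwann cells, lies at chr10:14402583-14545659 on the minus strand. Edn1 (ENSMUSG00000021367), the precursor of the vasoconstrictor peptide endothelin, lies at chr13:42301476-42307990 on the plus strand, and Elovl7 (ENSMUSG00000021696), an elongase of very long chain fatty acids, at chr13:108214404-108285683 on the plus strand. Aqp3 (ENSMUSG00000028435), a channel for water and glycerol, lies at chr4:41092722-41098183 on the minus strand, and Tlx2 (ENSMUSG00000068327), a homeobox transcription factor of the developing enteric nervous system, at chr6:83068324-83070293 on the minus strand. Exons of Adgrg6 overlap those of Gm46212, and exons of Edn1 those of Gm47118, so reads of these pairs may be missing from, or mixed into, their counts.

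RefSeq promoters on GRCm38.p6 were matched for 4 of the 7, Adgrg6, Elovl7, Aqp3 and Edn1, and are shown because PRC2 is known for CpG-rich promoters and the 4 differ in this. Each runs 5′ to 3′ on the gene's strand over 300 bases, mostly upstream of the RefSeq start, with each CpG dinucleotide in capitals. They lie at chr10:14544987-14545286, chr13:108214154-108214453, chr4:41098134-41098433 and chr13:42301226-42301525.
Adgrg6: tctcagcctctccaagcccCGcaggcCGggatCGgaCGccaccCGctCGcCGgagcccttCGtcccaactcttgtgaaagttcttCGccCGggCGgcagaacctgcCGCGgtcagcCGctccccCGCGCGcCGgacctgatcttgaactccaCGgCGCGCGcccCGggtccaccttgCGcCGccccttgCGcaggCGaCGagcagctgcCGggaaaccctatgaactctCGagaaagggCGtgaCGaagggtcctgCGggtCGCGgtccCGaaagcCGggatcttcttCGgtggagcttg
Elovl7: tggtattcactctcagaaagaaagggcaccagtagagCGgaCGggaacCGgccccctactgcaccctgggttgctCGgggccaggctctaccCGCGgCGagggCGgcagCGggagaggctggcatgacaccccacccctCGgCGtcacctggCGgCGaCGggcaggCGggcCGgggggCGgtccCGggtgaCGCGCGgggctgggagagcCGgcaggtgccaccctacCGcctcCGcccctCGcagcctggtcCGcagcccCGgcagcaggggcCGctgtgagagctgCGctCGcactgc
Aqp3: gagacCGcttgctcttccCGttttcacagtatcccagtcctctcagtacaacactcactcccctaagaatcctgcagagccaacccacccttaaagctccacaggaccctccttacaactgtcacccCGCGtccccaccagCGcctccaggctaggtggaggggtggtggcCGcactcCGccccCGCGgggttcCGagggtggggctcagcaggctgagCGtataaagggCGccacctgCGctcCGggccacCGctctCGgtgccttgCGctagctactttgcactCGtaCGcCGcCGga
Edn1: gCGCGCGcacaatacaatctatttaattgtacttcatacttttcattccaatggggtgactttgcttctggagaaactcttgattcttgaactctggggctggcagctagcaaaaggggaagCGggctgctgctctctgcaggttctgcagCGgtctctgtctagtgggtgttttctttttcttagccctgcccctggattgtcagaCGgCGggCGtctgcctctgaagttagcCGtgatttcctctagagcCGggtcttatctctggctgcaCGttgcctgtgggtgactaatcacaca
The letters CG were searched on both strands, where they read the same. The Adgrg6 window held 38 of them, the Elovl7 window 30, the Aqp3 window 21 and the Edn1 window 11. Of all 32841 RefSeq promoters of this length, 94.6% held at least 1 and the median was 7, and over the 396 promoters of genes at recruited sites the median was 22. By this count Adgrg6 exceeded 82.8% of the promoters at recruited sites and Edn1 exceeded 21.0%. Edn1, whose transcripts were not detected in WT EpiLCs, thus had the fewest CpGs of these 4 windows.

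**Figure D1:**
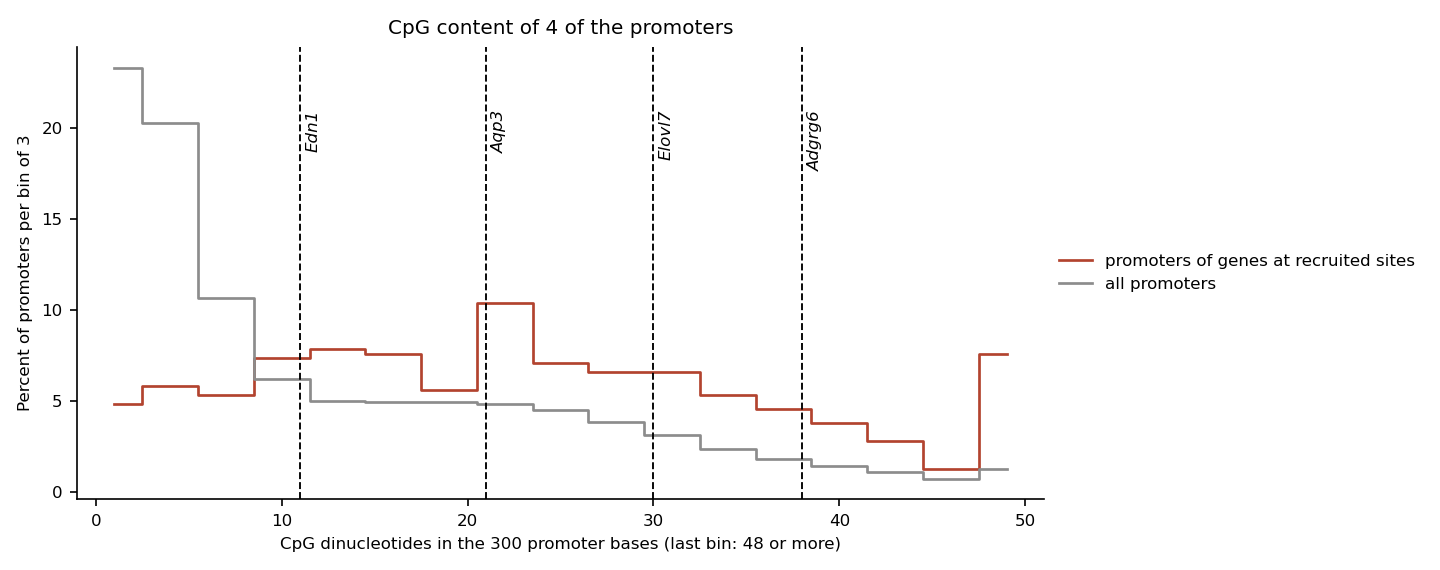
CpG dinucleotides in 300 promoter bases (x axis) against the percent of promoters in each bin of 3 (y axis), for promoters of genes at recruited sites (red) and all promoters in the RefSeq table (grey), with dashed lines at 4 of the genes. Edn1 lies at 11, Aqp3 at 21, Elovl7 at 30 and Adgrg6 at 38, while the median of all promoters is 7.

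How far each gene fell between the stages is described here, first in the WT lines. Per length of exon (RPKM, the CPM per kilobase), the order in J2WT ESCs was Aqp3 at 207 ± 3.42, Jam2 at 85.6 ± 2.20, Ntn1 at 40.0 ± 1.43, Tlx2 at 25.3 ± 0.178, Adgrg6 at 5.64 ± 0.34, Elovl7 at 4.27 ± 0.576 and Edn1 at 1.27 ± 0.114 (SD, n = 3). All other levels are CPM and are compared within a gene only. In J2WT cells all 7 genes were lower in EpiLCs with no overlap between libraries, where 43.0% of all genes tested were, and in PclWT cells 6 of 7 were, where 24.9% of all genes were. Here and below, shares of genes without overlap cover only genes averaging 15 or more normalized counts in the libraries compared (the count minimum). The 7 genes were counted without this minimum, so the 2 sets are not alike. Since the genes were picked for this fall, the counts are not evidence for it.

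Jam2 had 5.30, 3.44 and 5.24 CPM in J2WT EpiLCs, against 531, 516 and 505 CPM in J2WT ESCs. In the PclWT line it had 4.48, 3.27 and 5.0 CPM in EpiLCs, against 369, 395 and 393 CPM in ESCs. Jam2 thus stood 111-fold lower in J2WT EpiLCs and 90.6-fold lower in PclWT EpiLCs, and the lines overlapped in EpiLCs. Ntn1 had 1.16, 1.35 and 1.53 CPM in J2WT EpiLCs, against 257, 256 and 241 CPM in J2WT ESCs, and its log2 ratio was -7.54. In the PclWT line Ntn1 had 2.52, 3.68 and 3.40 CPM in EpiLCs, against 102, 111 and 109 CPM in ESCs, a log2 ratio of -5.07 that was -4.92 without PclWT EpiLC replicate 1.

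Aqp3 showed the largest spread between the WT lines among the genes with counts in all libraries. It had 0.853, 0.307 and 0.575 CPM in J2WT EpiLCs, against 377, 372 and 385 CPM in J2WT ESCs, a 654-fold lower level. In the PclWT line it had 11.4, 8.29 and 8.01 CPM in EpiLCs, against 98.5, 87.6 and 84.2 CPM in ESCs, which is 9.77-fold lower. PclWT EpiLC replicate 1 was the highest of its group, and the log2 ratio of -3.29 was -3.47 without it. Elovl7 had 1.04, 0.982 and 1.21 CPM in J2WT EpiLCs, against 17.4, 19.3 and 14.7 CPM in J2WT ESCs, a log2 ratio of -3.99. In the PclWT line it had only 3.94, 4.2 and 3.30 CPM in EpiLCs, against 5.14, 6.10 and 5.68 CPM in ESCs, a log2 ratio of -0.56.

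Edn1 and Tlx2 were close to or below detection in EpiLCs. Edn1 had 0 counts in all 9 WT EpiLC libraries, which allows up to 0.062 CPM over the J2WT EpiLC group and 0.104 CPM over the PclWT EpiLC group at 3 counts, and these limits cover counting error only. Its ESC levels were 2.99, 2.64 and 2.52 CPM in J2WT and 2.91, 4.07 and 4.01 CPM in PclWT, so Edn1 was at least 43.8-fold lower in J2WT EpiLCs and at least 35-fold lower in PclWT EpiLCs. Tlx2 had 2 counts in all J2WT EpiLC libraries together, against 39.7, 40.1 and 40.2 CPM in J2WT ESCs, a ratio of 981-fold lower with a 95% exact counting interval of 267 to 7990. In the PclWT line Tlx2 had 2 counts in EpiLCs, against 3.98, 4.28 and 4.12 CPM in ESCs, which is 59.1-fold lower (16.1 to 497). Tlx2 was thus hardly detected in EpiLCs of both lines, while its ESC levels lay far apart.

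Adgrg6 went with the line more than with the stage. It had 10.7, 11.5 and 11.2 CPM in J2WT EpiLCs, against 73.3, 68.5 and 65.0 CPM in J2WT ESCs, a log2 ratio of -2.63. In PclWT cells it had 3 counts over the EpiLC libraries and 4 counts over the ESC libraries, where the 95% exact counting interval of the fold lower in EpiLCs, 0.228 to 9.19, holds 1. Among these WT lines the fall of Adgrg6 is therefore a value of J2WT alone.

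**Figure D2:**
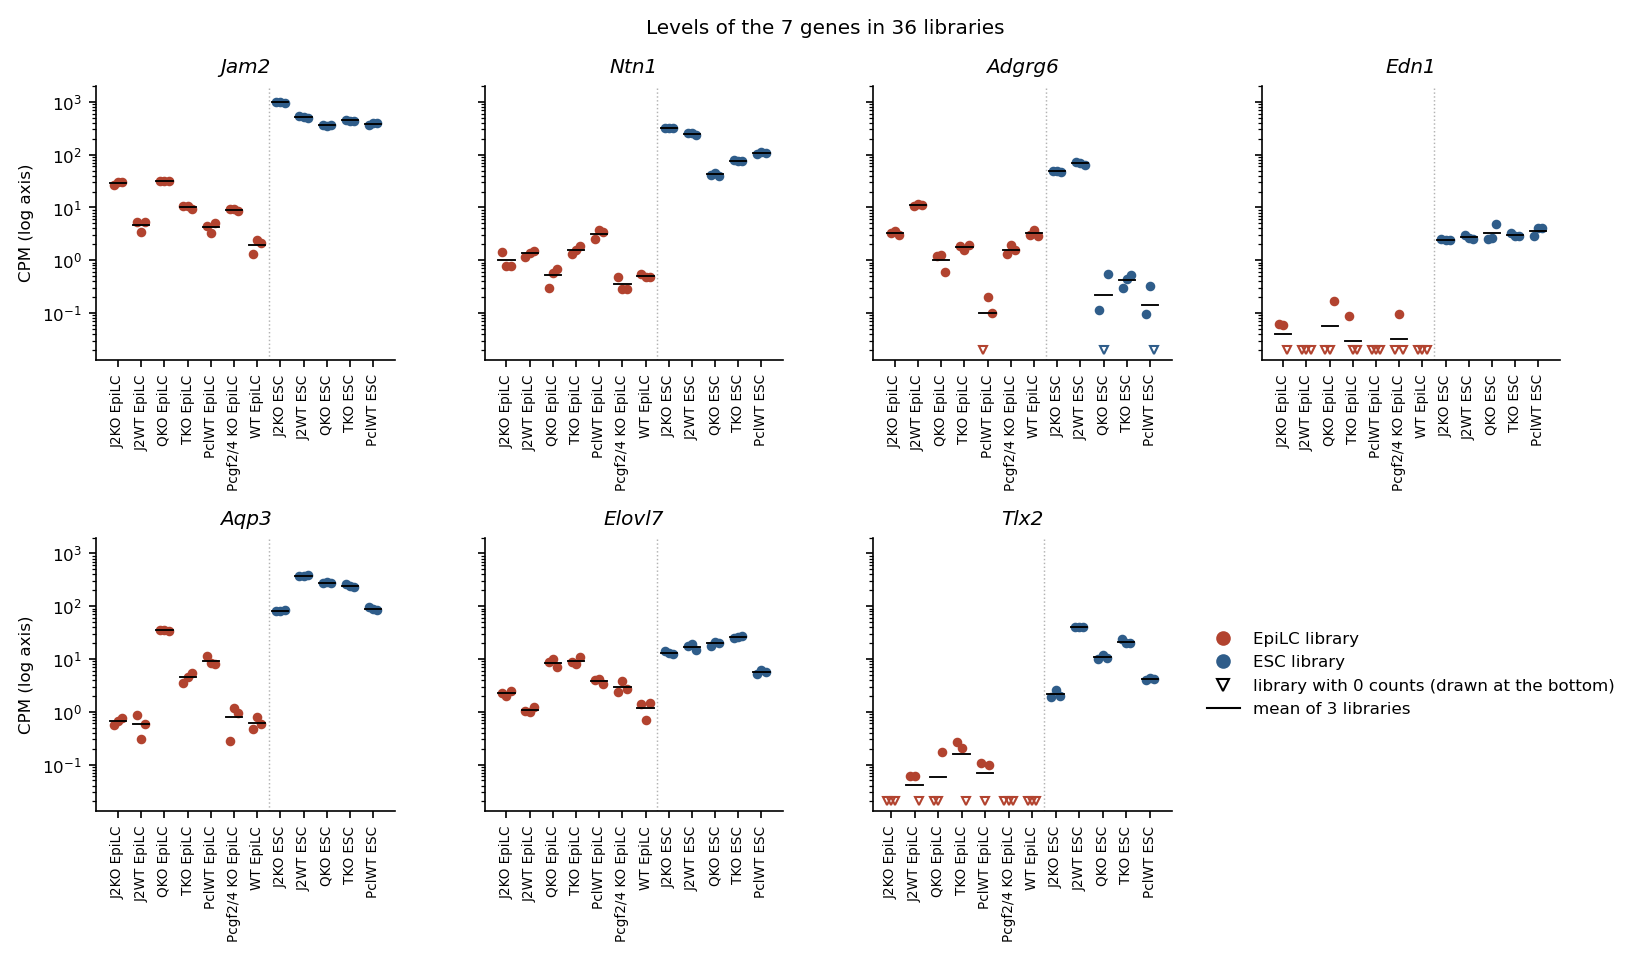
CPM on a log axis (y) of each gene in each of the 36 libraries, by group (x), with EpiLC libraries in red, ESC libraries in blue, lines at the mean of 3 libraries and open triangles at the bottom for libraries with 0 counts. Jam2, Ntn1, Edn1, Aqp3 and Tlx2 are lower in EpiLCs in every line measured at both stages, whereas Adgrg6 is lowest in the ESCs of PclWT, TKO and QKO and in PclWT EpiLCs.

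Among the 356 genes at recruited sites that passed the count minimum in the joint comparison of both WT lines, 223 were called lower and 2 higher in EpiLCs (63.2% called, against 21.0% of all 13523 genes tested), with a median log2 fold change of -1.41 against 0.01 over all genes. Ranked from the deepest fall, Tlx2 was at 1, Edn1 at 2, Jam2 at 4, Ntn1 at 5 and Aqp3 at 11. Adgrg6 was at 83 and Elovl7 at 105, with joint log2 fold changes of -2.51 and -2.23. These joint values combine unlike lines and do not show a moderate fall in each. Elovl7 had log2 ratios of -3.99 in J2WT and -0.56 in PclWT, and Adgrg6 was hardly detected in PclWT. The ranks describe the choice of genes and are not a test of it.

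The same ratio within each mutant line shows how far the genes fell without the Polycomb proteins. All 7 were lower in J2KO EpiLCs than in J2KO ESCs with no overlap, where 43.7% of all genes were, and 6 of 7 were lower in TKO (39.8% of all genes) and in QKO (37.8% of all genes). The remaining gene, Adgrg6, was higher in EpiLCs of both (35.6% of all genes in TKO and 37.5% in QKO), though it lay under the count minimum of these shares. Jam2 had 26.6, 30.8 and 30.9 CPM in J2KO EpiLCs, against 993, 998 and 973 CPM in J2KO ESCs, a log2 ratio of -5.07. It had 31.2, 31.4 and 31.2 CPM in QKO EpiLCs, against 372, 346 and 358 CPM in QKO ESCs, a log2 ratio of -3.52 that was also -3.52 without QKO EpiLC replicate 2. In TKO the log2 ratio was -5.45, deeper than in J2KO and QKO. The fall of Jam2 was thus less deep in each mutant than in its WT line and least deep in QKO.

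For Ntn1 the log2 ratios were -8.34 in J2KO, -6.35 in QKO and -5.62 in TKO, so this gene stayed low in EpiLCs of every mutant. The log2 ratio of Aqp3 was -6.95 in J2KO, -3.01 in QKO and -5.75 in TKO, and that of Elovl7 was -2.53 in J2KO, -1.22 in QKO and -1.49 in TKO. Edn1 kept 1 or 2 counts per mutant EpiLC group, with ratios of 59.8-fold lower in J2KO (15.9 to 491), 102-fold lower in TKO (14.8 to 3390) and 58.5-fold lower in QKO (13.8 to 432). Tlx2 was at least 34.8-fold lower in J2KO EpiLCs, at 5 counts in TKO EpiLCs against 613 counts in TKO ESCs, and at 2 counts in QKO EpiLCs against 277 counts in QKO ESCs. Adgrg6 was the exception, with 50 counts in TKO EpiLCs against 12 counts in TKO ESCs and 30 counts in QKO EpiLCs against 6 counts in QKO ESCs. In QKO its log2 ratio of 2.21 rested on QKO ESC replicate 3, with 0.543 CPM, and was 4.14 without it, and 1.63 without QKO ESC replicate 2.

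**Figure D3:**
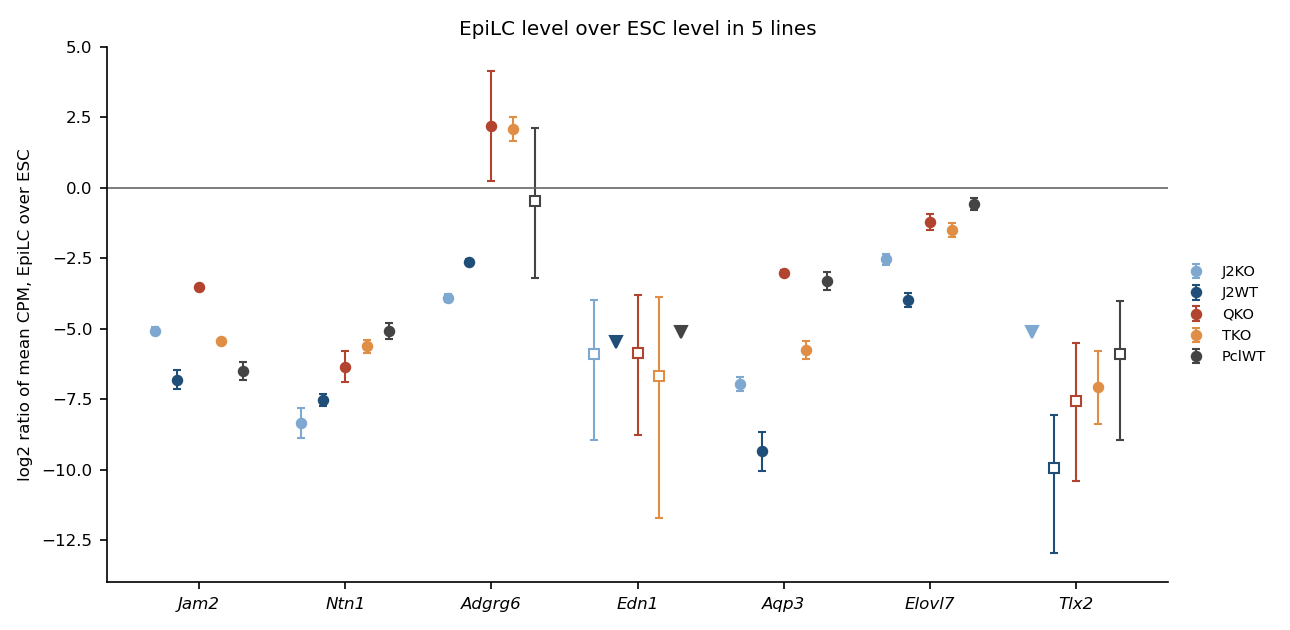
Log2 ratio of mean CPM, EpiLC over ESC (y axis), of each gene (x axis) in J2KO, J2WT, QKO, TKO and PclWT cells. Filled points have bars of the spread between replicates (the relative SDs of both groups combined), open squares are ratios with 1 to 3 counts in a group with their 95% counting interval, and triangles are bounds against 0 counts, which show all ratios below 0 except those of Adgrg6 in TKO and QKO.

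In EpiLCs each mutant was then set against its WT, the comparison from which part of the list was picked. Jam2 and Elovl7 were higher in all 4 mutants with no overlap between libraries, Aqp3 in QKO only, and Adgrg6 in TKO and QKO. By gene count, 2 of 7 were higher and 1 lower in J2KO, where 34.1% of all genes were higher and 34.5% lower. In TKO 3 were higher and 2 lower (29.5% and 25.5% of all genes), in QKO 4 and 1 (29.3% and 24.6%) and in Pcgf2/4 KO 2 and 2 (28.6% and 31.8%). These shares cover genes over the count minimum, and several of the 7 lay under it in these EpiLCs. Among them, Adgrg6 in TKO and QKO and Ntn1 in Pcgf2/4 KO were still counted as higher or lower. TKO and QKO share the PclWT libraries, so their ratios are not independent.

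Jam2 was 6.32-fold higher in J2KO EpiLCs, at the levels given above. In QKO EpiLCs it was 7.35-fold higher than in PclWT EpiLCs, and in TKO EpiLCs, with 10.5, 10.6 and 9.50 CPM, it was 2.40-fold higher. In Pcgf2/4 KO EpiLCs it had 9.17, 9.21 and 8.46 CPM, against 1.29, 2.44 and 2.13 CPM in WT EpiLCs, a 4.57-fold higher level. No mutant EpiLC group reached the Jam2 level of any ESC group. Without PclWT EpiLC replicate 1 the Jam2 log2 ratios were 2.92 in QKO and 1.3 in TKO, against 2.88 and 1.26 with it.

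Elovl7 had 2.27, 2.00 and 2.52 CPM in J2KO EpiLCs, with a log2 ratio to J2WT of 1.07. It had 8.71, 9.84 and 6.93 CPM in QKO EpiLCs, a log2 ratio to PclWT of 1.16, and 8.72, 8.14 and 11.1 CPM in TKO EpiLCs, a log2 ratio to PclWT of 1.29. In Pcgf2/4 KO EpiLCs it had 2.36, 3.78 and 2.69 CPM, against 1.39, 0.685 and 1.45 CPM in WT EpiLCs, a log2 ratio of 1.33. The ratio of Elovl7 was thus between 2.10-fold and 2.51-fold in each mutant, whatever the level in its WT.

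Aqp3 had 35.9, 35.3 and 33.2 CPM in QKO EpiLCs, which is 3.77-fold higher than in PclWT EpiLCs and 7.68-fold higher than in TKO EpiLCs, with 3.56, 4.64 and 5.39 CPM. TKO EpiLCs lay below PclWT EpiLCs, by a log2 ratio of -1.03, so in EpiLCs loss of the Polycomb-like proteins alone did not go with a higher Aqp3 level. In J2KO EpiLCs Aqp3 had 0.552, 0.668 and 0.776 CPM, which overlapped J2WT EpiLCs. In Pcgf2/4 KO EpiLCs it had 0.284, 1.16 and 0.961 CPM, against 0.462, 0.782 and 0.581 CPM in WT EpiLCs, which overlapped too. Ntn1 was lower in QKO EpiLCs, with 0.304, 0.565 and 0.684 CPM and a log2 ratio to PclWT of -2.63, and in TKO EpiLCs, with 1.34, 1.55 and 1.84 CPM and a log2 ratio of -1.02. In J2KO EpiLCs it overlapped J2WT EpiLCs, and in Pcgf2/4 KO EpiLCs it had 11 counts in all, against 16 counts in WT EpiLCs.

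Adgrg6 was lower in J2KO EpiLCs, with 3.25, 3.58 and 2.97 CPM and a log2 ratio to J2WT of -1.77. It was lower also in Pcgf2/4 KO EpiLCs, with 1.32, 1.94 and 1.54 CPM, against 3.05, 3.72 and 2.90 CPM in WT EpiLCs, a log2 ratio of -1.01. In TKO EpiLCs it had 1.87, 1.55 and 1.99 CPM and in QKO EpiLCs 1.22, 1.24 and 0.599 CPM, against 3 counts over the PclWT EpiLC libraries, ratios of 17.7-fold higher in TKO (95% exact counting interval 5.56 to 86.3) and, on the log2 scale, 3.33 in QKO (2.96-fold to 48.7-fold). Edn1 stayed at 0 to 2 counts and Tlx2 at 0 to 5 counts per EpiLC group, and at these counts a difference between mutant and WT was not detectable for either.

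**Figure D4:**
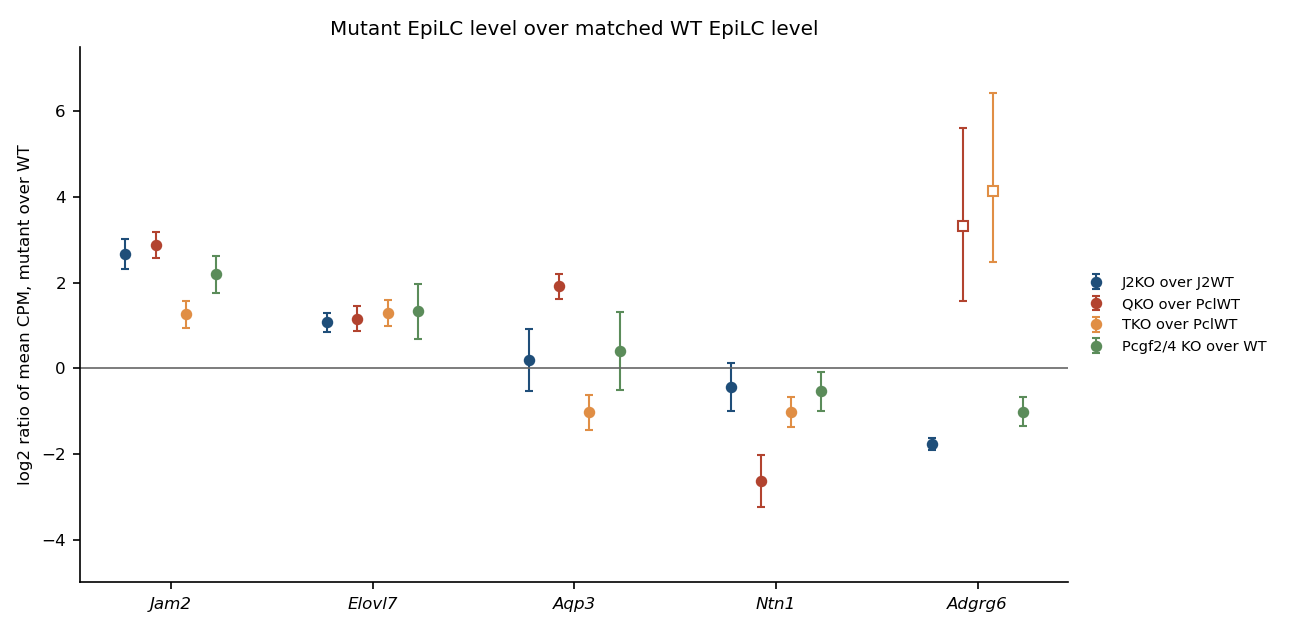
Log2 ratio of mean CPM, mutant EpiLC over matched WT EpiLC (y axis), of 5 genes (x axis), with bars of the spread between replicates for filled points and 95% counting intervals for open squares. Jam2 and Elovl7 lie above 0 in all 4 mutants and Aqp3 clearly above 0 in QKO alone. Ntn1 lies below 0 in all 4, with overlap in J2KO and only 11 against 16 counts in Pcgf2/4 KO. Edn1 and Tlx2 are left out, at 5 or fewer counts per group.

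Without PclWT EpiLC replicate 1, the log2 ratios of Elovl7 were 1.18 in QKO, 1.31 in TKO and -0.59 between the PclWT stages, those of Aqp3 were 2.09 in QKO and -0.85 in TKO, and those of Ntn1 were -2.77 in QKO and -1.17 in TKO. Without QKO EpiLC replicate 2, the QKO log2 ratios to PclWT were 2.87 for Jam2, 1.04 for Elovl7, 1.90 for Aqp3 and -2.70 for Ntn1, and those between the QKO stages were -1.34 for Elovl7, -3.02 for Aqp3, -6.42 for Ntn1 and 2.05 for Adgrg6. These ratios lay close to those with all libraries.

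Other markers differed in these EpiLCs too. The summed level of the naive markers Prdm14, Klf4, Esrrb, Zfp42, Tfcp2l1 and Nanog was 341 to 343 CPM in J2KO against 228 to 244 CPM in J2WT, 1040 to 1150 CPM in QKO and 493 to 553 CPM in TKO against 217 to 230 CPM in PclWT, and 556 to 613 CPM in Pcgf2/4 KO against 275 to 287 CPM in WT EpiLCs. All 6 markers were over 1 CPM in each of these mutant groups and in PclWT, and 5 of 6 were in J2WT and WT EpiLCs. Single markers did not all follow the sums. In J2KO Prdm14, Klf4, Esrrb and Zfp42 averaged higher, with Esrrb at 142 CPM against 71.1 CPM in J2WT. Nanog averaged lower there, at 56.8 CPM against 59.2 CPM, and Tfcp2l1 hardly differed, at 24.6 CPM against 24.2 CPM. In TKO Zfp42 averaged 40.5 CPM against 43.5 CPM in PclWT, while the others were higher. The 6 primitive endoderm markers Gata6, Gata4, Sox17, Sox7, Pdgfra and Foxa2 summed to 36.1 to 37.6 CPM in QKO (5 of 6 over 1 CPM) and 63.7 to 75.6 CPM in TKO (6 of 6), against 3.50 to 4.71 CPM in PclWT (2 of 6), and to 18.9 to 20.3 CPM in Pcgf2/4 KO (5 of 6 over 1 CPM), against 4.45 to 5.36 CPM in WT (1 of 6). In J2KO they summed to 4.79 to 5.71 CPM (1 of 6), against 11.7 to 14.3 CPM in J2WT (4 of 6). Gata4 alone went the other way in J2KO, at 3.13 CPM against 1.51 CPM in J2WT. The part of these cells in the levels of the 7 genes was not tested, and in bulk RNA fewer cells of a type and less RNA per cell cannot be told apart.

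The mutants were also set against their WT in ESCs. The WT ESC libraries entered the choice of genes, through the fall from ESCs to EpiLCs, and a rise in mutants may have been read in ESCs too, so these fold changes are descriptions and are given with a standard error (SE) and no test of the members. The calls over all genes used edgeR's quasi-likelihood test, at a Benjamini-Hochberg adjusted p under 0.05 and a fold change over 2. In J2KO ESCs Aqp3 and Tlx2 met this rule as lower, 2 of the 7 genes that passed the count minimum, and none as higher, where 6.53% of all 13432 genes were called lower and 6.82% higher. In TKO ESCs Aqp3, Elovl7 and Tlx2 met it as higher, 3 of 6, and none as lower (6.54% of all genes higher and 7.27% lower). In QKO ESCs Aqp3, Elovl7 and Tlx2 met it as higher and Ntn1 as lower, 4 of 6 (5.8% of all genes higher and 8.06% lower). The adjusted p alone was passed by 70.9% of all genes in J2KO, 66.8% in TKO and 69.3% in QKO ESCs, and nothing about the 7 genes is read from these counts. Adgrg6 was under the count minimum in TKO, QKO and PclWT ESCs. TKO and QKO ESCs were set against the same PclWT libraries.

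Tlx2 was lower in J2KO ESCs and higher in TKO and QKO ESCs, each against its own WT. It had 1.90, 2.60 and 1.99 CPM in J2KO ESCs, against 39.7, 40.1 and 40.2 CPM in J2WT ESCs, a log2 fold change of -4.21 (SE 0.10). In TKO ESCs it had 23.9, 19.8 and 20.3 CPM, and in QKO ESCs 10.2, 11.7 and 10.5 CPM, against 3.98, 4.28 and 4.12 CPM in PclWT ESCs. The log2 fold changes were 2.33 in TKO (SE 0.13) and 1.36 in QKO (SE 0.14). No library of a mutant overlapped its WT. The TKO and QKO levels of Tlx2 lay above PclWT but below J2WT, so their direction depends on which WT line they are set against.

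Aqp3 showed the same pattern of directions. It had 81.1, 81.1 and 84.7 CPM in J2KO ESCs, against 377, 372 and 385 CPM in J2WT ESCs, a 4.62-fold lower level (log2 -2.21, SE 0.04). It had 259, 243 and 226 CPM in TKO ESCs, and 271, 293 and 277 CPM in QKO ESCs, against 98.5, 87.6 and 84.2 CPM in PclWT ESCs. It was 2.62-fold higher in TKO (log2 1.39, SE 0.07) and 3.05-fold higher in QKO (log2 1.61, SE 0.06). In TKO and QKO the Aqp3 level lay above PclWT but below J2WT, so their direction depends on which WT line they are set against. The J2KO level lay below J2WT and overlapped that of PclWT.

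Elovl7 had 24.5, 26.6 and 27.3 CPM in TKO ESCs and 17.8, 21.2 and 20.4 CPM in QKO ESCs, against 5.14, 6.10 and 5.68 CPM in PclWT ESCs. It was 4.52-fold higher in TKO (SE of the log2 value 0.12) and 3.46-fold higher in QKO (SE 0.12). Elovl7 was thus above its WT by more than 2-fold in TKO and QKO at both stages. In J2KO ESCs it had 14.0, 13.0 and 12.4 CPM, against 17.4, 19.3 and 14.7 CPM in J2WT ESCs, a log2 fold change of -0.39 (SE 0.09).

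Ntn1 was lower in QKO ESCs, with 41.8, 44.6 and 40.2 CPM, against 102, 111 and 109 CPM in PclWT ESCs, a 2.59-fold lower level (log2 -1.37, SE 0.06). In TKO ESCs, with 78.9, 77.1 and 75.8 CPM, the log2 fold change was -0.51, and in J2KO ESCs it was 0.35, both under 2-fold. Jam2 was 1.90-fold higher in J2KO ESCs, just under the 2-fold limit (log2 0.93, SE 0.03), with log2 fold changes of 0.17 in TKO and -0.13 in QKO. Adgrg6 had 49.3, 50.1 and 48 CPM in J2KO ESCs, against 73.3, 68.5 and 65.0 CPM in J2WT ESCs, a log2 fold change of -0.50. Edn1 differed least from its WT beside its error, with log2 fold changes of -0.17 (SE 0.17) in J2KO, -0.30 (SE 0.21) in TKO and -0.13 (SE 0.25) in QKO.

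For all genes at recruited sites, 21 were called higher and 56 lower of 378 tested in J2KO ESCs (20.4% called), 71 higher and 17 lower of 352 in TKO ESCs (25%), and 71 higher and 34 lower of 349 in QKO ESCs (30.1%). Their median log2 fold changes were -0.19, 0.27 and 0.26 in that order, beside -0.01 over all genes in each. Markers of other cells differed between these ESCs as well. The summed level of the 6 trophoblast markers Cdx2, Elf5, Eomes, Krt7, Krt8 and Hand1 was 11.7 to 13.4 CPM in J2KO ESCs against 51.8 to 54.5 CPM in J2WT ESCs, and 23.0 to 25.3 CPM in QKO and 50.5 to 55.7 CPM in TKO ESCs against 19.3 to 22.6 CPM in PclWT ESCs. Single genes made up most of it, Krt8 in J2WT at 40.7 CPM and Eomes in TKO at 39.6 CPM. Other members did not follow: Eomes averaged 6.4 CPM in J2KO and 7.06 CPM in J2WT, Hand1 averaged 0.454 CPM in TKO and 1.44 CPM in PclWT, and Elf5 was under 0.2 CPM in every ESC group. The 6 primitive endoderm markers summed to 17.1 to 19.1 CPM in QKO (5 of 6 over 1 CPM) and 11.6 to 12.0 CPM in TKO ESCs (4 of 6), against 4.90 to 6.88 CPM in PclWT ESCs (2 of 6). They summed to 7.19 to 8.14 CPM in J2KO ESCs, against 3.34 to 3.61 CPM in J2WT ESCs (2 of 6 in each). In J2KO Gata4 made up most of it, at 4.64 CPM against 0.361 CPM in J2WT, and Sox17 was higher too. Gata6 was lower there, at 0.574 CPM against 1.20 CPM, as was Pdgfra, at 1.29 CPM against 1.54 CPM. In TKO and QKO Gata4 and Sox7 were higher than in PclWT, while Pdgfra was lower in both, and Gata6 averaged lower in TKO. The 6 naive markers summed to 4620 to 4660 CPM in QKO and 4940 to 5190 CPM in TKO, against 3080 to 3230 CPM in PclWT, and to 4820 to 4900 CPM in J2KO, against 4060 to 4300 CPM in J2WT. Tfcp2l1 averaged lower in J2KO, at 1270 CPM against 1420 CPM in J2WT. In TKO Prdm14 was level with PclWT, at 55.4 CPM against 55.9 CPM. The 4 endothelial markers averaged 86.6 CPM in sum in QKO and 118 CPM in TKO, against 254 CPM in PclWT, and 271 CPM in J2KO, against 163 CPM in J2WT. Pecam1 alone made up most of it, at 64.6 CPM in QKO, 95.7 CPM in TKO, 216 CPM in PclWT, 264 CPM in J2KO and 157 CPM in J2WT. Cdh5 was under 0.2 CPM in every ESC group. In J2KO Kdr was lower, at 2.34 CPM against 4.70 CPM in J2WT, and Tek higher, at 4.80 CPM against 1.33 CPM. The 4 surface epithelium markers averaged 2.13 CPM in sum in QKO and 2.65 CPM in TKO, against 8.39 CPM in PclWT, and 34.3 CPM in J2KO, against 7.72 CPM in J2WT. Only 1 of these 4 was over 1 CPM in each ESC group. The part of any of these lists in the levels of the 7 genes was not tested.

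**Figure D5:**
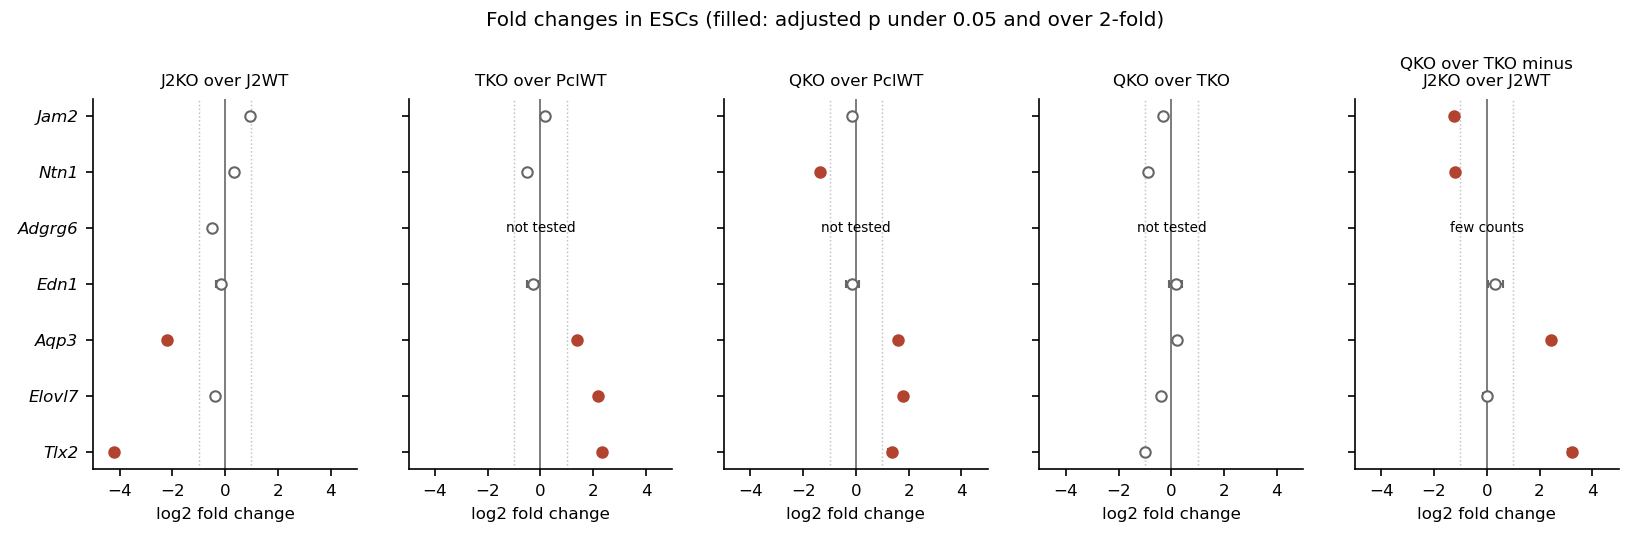
Log2 fold change with its standard error (x axis) of each gene (y axis) in 5 comparisons of ESCs, with filled red points for genes that met the call rule (edgeR adjusted p under 0.05 and over 2-fold), genes under the count minimum or with few counts named in words, and dotted lines at the 2-fold limits. Aqp3 and Tlx2 lie left of 0 in J2KO and right of 0 in TKO and QKO, and in the last panel Jam2 and Ntn1 lie left and Aqp3 and Tlx2 right of 0.

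QKO was also set directly against TKO in ESCs, which asks what further loss of JARID2 goes with. No WT library enters this comparison, but the mutant libraries may have had a part in the choice of genes. Its fold changes are therefore descriptions too, with no test of the members. With edgeR 0 of the 6 genes over the count minimum met the call rule, where 4.53% of all 12169 genes did, and with DESeq2 0 did as well. The adjusted p alone was passed by 42.4% of all genes. Tlx2 was 1.98-fold lower in QKO (log2 -0.98, SE 0.11), and leaving out QKO ESC replicate 2 or TKO ESC replicate 2 or 3 brought it to between -1.04 and -1.02, past the 2-fold limit. Ntn1 was 1.83-fold lower in QKO (log2 -0.87, SE 0.06), Elovl7 had a log2 fold change of -0.40, Jam2 of -0.31 and Aqp3 of 0.21. Edn1 differed by less than its error (log2 0.16, SE 0.24), and QKO ESC replicate 3, with 4.78 CPM against 2.55 and 2.67 CPM in the other QKO ESC libraries, decided its direction.

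Loss of JARID2 could thus be compared between a background without the Polycomb-like proteins (QKO against TKO) and a WT background (J2KO against J2WT). The J2WT ESC level, from which the fall was measured, is part of this difference, so it too is a description. Adgrg6, which passed the count minimum only through the J2 lines and had 12 counts in TKO and 6 counts in QKO ESCs, is left out. The difference met the call rule for 4 of the other 6 genes, 2 higher and 2 lower, where 7.02% of all 13017 genes were called higher and 9.79% lower. The change in the TKO background minus that in the WT background was 3.23 on the log2 scale for Tlx2 (SE 0.16) and 2.42 for Aqp3 (SE 0.06), and both genes owe most of it to their lower level in J2KO than in J2WT ESCs. It was -1.23 for Jam2 (SE 0.05) and -1.21 for Ntn1 (SE 0.06), whose log2 fold changes were above 0 in J2KO and below 0 in QKO. For Elovl7 it was 0.00 (SE 0.13) and for Edn1 0.33 (SE 0.30). The backgrounds are also different lines, so the effect of the background and of the line cannot be told apart.

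The WT lines differed in ESCs, which bears on every comparison above. J2WT ESCs were higher than PclWT ESCs with no overlap for 6 of the 7 genes, where 44.1% of all genes were. Tlx2 averaged 40.0 ± 0.282 CPM in J2WT and 4.12 ± 0.153 CPM in PclWT ESCs, Aqp3 averaged 378 ± 6.25 CPM in J2WT and 90.1 ± 7.48 CPM in PclWT ESCs, and Ntn1 averaged 251 ± 8.98 CPM in J2WT and 107 ± 4.84 CPM in PclWT ESCs (SD, n = 3 each). Elovl7 averaged 17.2 ± 2.31 CPM in J2WT and 5.64 ± 0.482 CPM in PclWT ESCs. Adgrg6 had 3271 counts in J2WT ESCs, against 4 counts in PclWT ESCs. In EpiLCs 3 of the 7 were lower in J2WT with no overlap (28.2% of all genes), and 1, Adgrg6, was higher (34.3% of all genes), with 539 counts in J2WT and 3 counts in PclWT EpiLCs. The lower genes were Aqp3 at 0.578 ± 0.273 CPM in J2WT and 9.22 ± 1.87 CPM in PclWT, Elovl7 at 1.08 ± 0.121 CPM in J2WT and 3.81 ± 0.459 CPM in PclWT, and Ntn1 at 1.35 ± 0.187 CPM in J2WT and 3.20 ± 0.61 CPM in PclWT EpiLCs.

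Ordered by mean CPM over the 12 groups, the top 5 groups of Jam2, Ntn1, Edn1, Aqp3 and Tlx2 were the 5 ESC groups. Jam2 was highest in J2KO ESCs, at 988 ± 13.2 CPM, and lowest in WT EpiLCs, at 1.96 ± 0.594 CPM, and only PclWT with QKO ESCs and J2WT with PclWT EpiLCs overlapped among its neighbours in the order. Ntn1 was highest in J2KO ESCs, at 322 ± 6.02 CPM, and lowest in Pcgf2/4 KO EpiLCs, at 0.351 ± 0.106 CPM. Aqp3 and Tlx2 were highest in J2WT ESCs. Elovl7 was highest in TKO ESCs, at 26.1 ± 1.48 CPM, and both TKO and QKO EpiLCs held more Elovl7 than PclWT ESCs. Edn1 overlapped between neighbours throughout, apart from the J2WT and J2KO ESC groups and the gap between ESCs and EpiLCs, and Adgrg6 was highest in J2WT ESCs and lowest in PclWT EpiLCs.

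The same families (junctional adhesion molecules and partners, elongases, aquaporins, endothelins with receptors and converting enzymes, TLX factors, netrins with receptors, and the ADGRG receptors) gave 47 further genes. None of those that passed the count minimum in a comparison had a TSS at a recruited site. With the same call rule, 4 rose and 2 fell of 20 tested in WT EpiLCs against WT ESCs (median log2 0.30, 0.01 over all genes), with Esam up by 2.51 and Adgrg1 down to a log2 value of -1.83. In J2KO EpiLCs 3 rose and 1 fell of 22 (8.82% of all genes called), led by the endothelin gene Edn2, at 6.12 ± 0.65 CPM in J2KO and 1.14 ± 0.036 CPM in J2WT (SD, n = 3 each). In TKO EpiLCs 2 rose and 3 fell of 20 (14.1% of all genes called), in QKO EpiLCs 0 rose and 3 fell of 20 (13.7% called), and in Pcgf2/4 KO EpiLCs 0 rose and 2 fell of 19 (5.83% called). Among them the homeobox gene Tlx3 fell in TKO (log2 -2.20) and in QKO (log2 -2.59), which share controls.

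In ESCs 3 family genes rose and 3 fell of 18 in J2KO (13.3% of all genes called), 1 rose and 4 fell of 18 in TKO (13.8%), and 3 rose and 3 fell of 18 in QKO (13.9%), with median log2 fold changes of -0.13, -0.27 and -0.19 in that order. Of the TLX genes, Tlx3 was lower in TKO and QKO ESCs, where Tlx2 was higher. Tlx3 averaged 1.32 ± 0.32 CPM in TKO and 1.20 ± 0.721 CPM in QKO ESCs and 5.08 ± 0.514 CPM in PclWT ESCs (SD, n = 3 each, edgeR log2 -1.97 and -2.14). Tlx1 was higher in QKO ESCs, at 5.83 ± 0.367 CPM in QKO and 0.319 ± 0.118 CPM in PclWT ESCs (edgeR log2 4.13, SE 0.29). In TKO ESCs Tlx1 was under the count minimum, at 1.22 ± 0.694 CPM. The netrin receptor gene Unc5b fell in J2KO ESCs, at 3.05 RPKM in J2KO and 14.4 RPKM in J2WT (edgeR log2 -2.24, SE 0.06). The elongase gene Elovl4 rose there, at 8.39 ± 0.299 CPM in J2KO and 1.60 ± 0.237 CPM in J2WT (edgeR log2 2.38, SE 0.15).

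The genes most like each member were those with the highest Pearson correlation of mean log2 CPM over the 12 groups, among 12325 genes, and the groups share lines and stages. Aqp3 was most like Cdx1 (r = 0.989) and Tdrp (0.979), both at recruited sites, and then Btn2a2 (0.971). Elovl7 was most like Rapgef3 (0.961) and Tshz1 (0.960), both at recruited sites, and Galnt4 (0.959). Ntn1 went with Washc1 (0.981), Kcp (0.980, at a recruited site) and Bhmt2 (0.980). For the other members no such gene lay at a recruited site: Jam2 went with Trps1, Nid1 and Qpctl (each 0.973), Adgrg6 with Amph (0.962), Cds2 (0.947) and Zfp640 (0.940), Edn1 with Nfatc2ip (0.989), Ticrr (0.987) and Chmp4c (0.986), and Tlx2 with Tbc1d13 (0.978), Susd2 (0.970) and Wdr83 (0.969). Of the 13523 genes tested between the WT stages, 356 lay at recruited sites, and 223 of these were called lower in EpiLCs. Nothing is therefore read from which similar genes lie at recruited sites. Among the 7, Jam2, Ntn1, Edn1, Aqp3, Elovl7 and Tlx2 correlated with each other at 0.71 to 0.94, while Adgrg6 correlated with them at -0.05 to 0.22. The 12 groups divide into ESCs and EpiLCs, and the genes were picked in part for their fall between these. The correlations therefore describe that choice and were not tested. Edn1 and Tlx2 held only 0 to 5 counts in each EpiLC group.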

How the data were processed

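The authors prepared poly(A) RNA libraries with a kit that does not mark strand, aligned reads with STAR (GRCm38), and deposited 1 file of raw gene counts per library. The column without strand was used, and 23.22% to 30.24% of reads per library were unmapped, mapped to several places, or in no gene or more than 1. Symbols and positions came from GENCODE annotation of GRCm38 (55141 genes with a symbol).

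Levels are CPM scaled by TMM over the 36 libraries, and RPKM uses the union of a gene's exons. Each comparison was fitted on its own libraries by quasi-likelihood (edgeR 4.0.16, R 4.3.3), keeping genes whose normalized counts averaged 15 or more, and p-values were adjusted over all of these by Benjamini-Hochberg. A call needed adjusted p < 0.05 together with a change of more than 2-fold. The standard error was derived from the F statistic. The steps were tested on simulated counts. The 7 genes, the family and marker lists and the tests were chosen with earlier results of these data known. All 7 genes are named, of called family genes at most the 2 with the largest change in a direction per comparison, and the 3 genes most like each member. Alternatives were DESeq2 1.42.0, RLE normalization, total counts, no count minimum, a replicate block, all 15 ESC libraries in 1 fit, and each library left out. Bounds use 3 counts over a group, and intervals and floors cover counting error only.

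Same-numbered libraries deviated together in all 3 pairs (correlation over 0.1) only for PclWT EpiLCs and ESCs, at 0.45, 0.242 and 0.205, where the highest value with another number was 0.255. This comes from the data, as no label says what a number marks.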

Additional observations from a re-analysis of the deposited data

Results flagged for a closer look

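The effect of losing JARID2 in ESCs differed between the background without the Polycomb-like proteins (QKO against TKO) and the WT background (J2KO against J2WT) for Tlx2, Aqp3, Jam2 and Ntn1, as a contrast of the 4 groups with edgeR over 13017 genes. The J2WT ESC libraries were part of the choice of these genes, so the values are descriptions. The log2 difference was 3.23 for Tlx2, with log2 fold changes of -0.98 in QKO against TKO and -4.21 in J2KO against J2WT. It was 2.42 for Aqp3, with 0.21 and -2.21 in the same order. It was -1.23 for Jam2, with -0.31 and 0.93, and -1.21 for Ntn1, with -0.87 and 0.35. Each background is a separate set of lines, and whether line or background goes with the difference cannot be told apart.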

How the results depend on the processing

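The numbers of the 7 genes called in the 5 ESC comparisons (2, 3, 4, 0 and 4) were the same under DESeq2, RLE size factors, no count minimum, the replicate block and, where it was run, the fit of all 15 ESC libraries. With 1 library left out, the count for QKO against TKO ESCs ranged from 0 to 1, through Tlx2, with log2 -1.04 without TKO ESC replicate 2, -1.02 without TKO ESC replicate 3 and -1.04 without QKO ESC replicate 2. Values near 0 turned sign. The Elovl7 difference between backgrounds, 0.00, was -0.00 with DESeq2 and RLE size factors, -0.01 with no count minimum and -0.09 to 0.10 with 1 library left out. The Adgrg6 difference, not used in the report for its few counts in TKO and QKO, ranged from -2.10 to 0.20 and the Edn1 difference from -0.04 to 0.50. Edn1 in QKO against PclWT ESCs ranged from -0.50 to 0.05 and in QKO against TKO ESCs from -0.22 to 0.32. The Jam2 log2 ratio of J2WT to PclWT EpiLCs, 0.13, was -0.11 with total counts and ranged from -0.03 to 0.31 with 1 library left out, that of Aqp3 in J2KO to J2WT EpiLCs from -0.10 to 0.59, and that of Elovl7 in QKO to TKO EpiLCs from -0.25 to 0.01. With no count minimum more family genes were called, since more were tested: 17 in WT EpiLCs against WT ESCs, and for mutant EpiLCs 7 (J2KO), 8 (TKO), 6 (QKO) and 4 (Pcgf2/4 KO), and for mutant ESCs 13 (J2KO), 10 (TKO) and 12 (QKO). Over all genes that setting called 5101 in WT EpiLCs against WT ESCs, against 2840 with the minimum. In Pcgf2/4 KO EpiLCs the family count ranged from 1 to 3 with 1 library left out (1 without WT EpiLC replicate 2 or Pcgf2/4 KO EpiLC replicate 1). In QKO EpiLCs the family count was 4 without PclWT EpiLC replicate 1 and 2 without QKO EpiLC replicate 2, against 3 with both. The replicate block groups same-numbered libraries of both WT lines and stages, though such libraries deviated together in all pairs only in PclWT. With it the family count in WT EpiLCs against WT ESCs was 5 against 6 without it, and 2784 against 2840 genes were called in all. At 0 to 5 counts per EpiLC group, depth limits Edn1 and Tlx2.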
